A study of Mus musculus with 8 samples.

Results

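Complex I genes were read in the livers of C57BL/6 mice of 21 to 22 weeks of age, 4 fed a high-fat diet and 4 fed a low-fat control diet. The set held every protein-coding row whose name marks a subunit of the NADH dehydrogenase (the Ndufa, Ndufb, Ndufc, Ndufs, Ndufv and Ndufab names) or a numbered assembly factor (the Ndufaf names), and it came to 45 genes of 18463 protein-coding rows and 28073 rows in all. The names chose the genes, and no measured value did. The labels give no sex, no fat content and no length of feeding, and no genotype or treatment other than the diet. The measurement was the number of RNA-seq reads assigned to each gene, with 26643020 to 30013106 counts in a library. All 45 genes passed the filter on low counts, among 14088 genes tested.

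Complex I is the entry point of electrons from NADH into the respiratory chain of the inner mitochondrial membrane. Its matrix arm oxidises NADH at a flavin and passes the electrons along iron-sulfur clusters to ubiquinone, and its membrane arm pumps protons. A core of catalytic subunits, partly encoded by the mitochondrial genome, is wrapped in accessory subunits that the nucleus encodes, and assembly factors build the complex but leave it when it is finished. In the liver the chain reoxidises the NADH that fatty acid oxidation produces. The mitochondrially encoded subunits were not analysed here.

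Complex I transcripts tended to be lower in high-fat livers, by modest amounts, where libraries were scaled by factors. With library totals alone 5 of the 45 genes were lower and 1 higher, where 3.79% of all tested genes were lower and 7.89% higher. The summed share of counts of the 45 then overlapped between the diets. Of the 10 genes that passed the test with scaling factors 9 were accessory subunits, which make up 29 of the 45. The 7 nuclear core subunits all had negative log2 fold changes too, with a median of -0.16, against -0.18 for the accessory subunits. Of the 45 genes, 10 were lower and 0 higher at an edgeR adjusted p below 0.05, which is 22.2% lower, where 5.86% of all tested genes were called lower and 3.75% higher. The 10 were Ndufb8, Ndufb5, Ndufb11, Ndufb10 and Ndufb2 of the distal membrane arm, Ndufc1 and Ndufc2 of the proximal membrane arm, Ndufa6 and Ndufa2 of the matrix arm, and the core subunit Ndufv2. Their levels were between 13.7% and 21.0% lower. At an unadjusted p below 0.05, 23 of the 45 were lower and 0 higher, where the shares of all tested genes were 13.8% and 11.1%. DESeq2 called 17 lower and 0 higher, where 8.47% of all genes were lower and 6.1% higher. With limma-voom 10 were lower and 0 higher, where the shares of all genes were 5.67% and 3.74%. The read counts come from whole liver, so fewer cells of a type and less RNA per cell cannot be told apart.

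The median log2 fold change (high-fat over control) was -0.15 over the 45 genes, with an interquartile range from -0.24 to -0.069, and 0.0069 over all tested genes, with one from -0.15 to 0.17. A negative value was found for 39 of the 45 genes and for 48.9% of all tested genes. In 22 of the 45 (48.9%) every high-fat library lay below every control library, a pattern seen in 9.97% of all tested genes, and the opposite pattern was seen in 0 of the 45 and in 7.28% of all. Summed over the 45 genes, the level was 3286, 3283, 3316 and 3429 CPM (read counts scaled to library size) in high-fat livers, against 3689, 3519, 3705 and 3888 CPM in control livers. With scaling factors the 2 groups did not overlap, and the high-fat mean was 10.1% below the control mean (3328 ± 68.7 CPM in high-fat livers and 3700.0 ± 151 CPM in control livers; SD, n = 4 each).

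The count of 10 depended on the libraries and on the scaling. It was 6 without high-fat replicate 1, 2 or 3 and without control replicate 1 or 2, and between 7 and 11 without 1 of the other 3 libraries. In the fits with 6, the share of all tested genes called lower was 3.04% to 4.08%. It was 3.38% to 5.91% in the other 3, and 5.86% with all libraries. Control replicates 1 and 4 held more counts of the adipocyte marker Adipoq than any other library, though few (42 and 32). Without these 2 libraries 3 genes were lower (Ndufb8, Ndufc1 and Ndufc2), and 3.18% of all genes were. With library totals in place of scaling factors, 5 of the 45 were lower and 1, Ndufaf1, was higher; over all genes that setting gave 534 lower and 1111 higher, against 825 lower and 529 higher with scaling factors, and the median of all tested genes was 0.10. The median of the 45 genes was then -0.058, and it lay 0.16 below the median of all genes under both scalings. As a share of all counts, with no scaling factor, the 45 genes together held 0.335%, 0.334%, 0.354% and 0.352% in high-fat libraries, against 0.357%, 0.343%, 0.360% and 0.371% in control libraries, which overlapped, and the high-fat mean differed from the control mean by -3.93%. On that scale 9 of the 45 had every high-fat library below every control library (5.52% of all tested genes), and these were the 10 called genes without Ndufb2; 3 had the opposite pattern (14.1% of all), namely Ndufaf1, Ndufaf7 and Ndufa10. The sums of the matrix arm and of the distal membrane arm stayed below the controls in every high-fat library on it, by means of -6.57% and -8.05%, that of the assembly factors lay above them in every one (9.45%), and those of the core subunits and the proximal membrane arm overlapped.

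**Figure D1:**
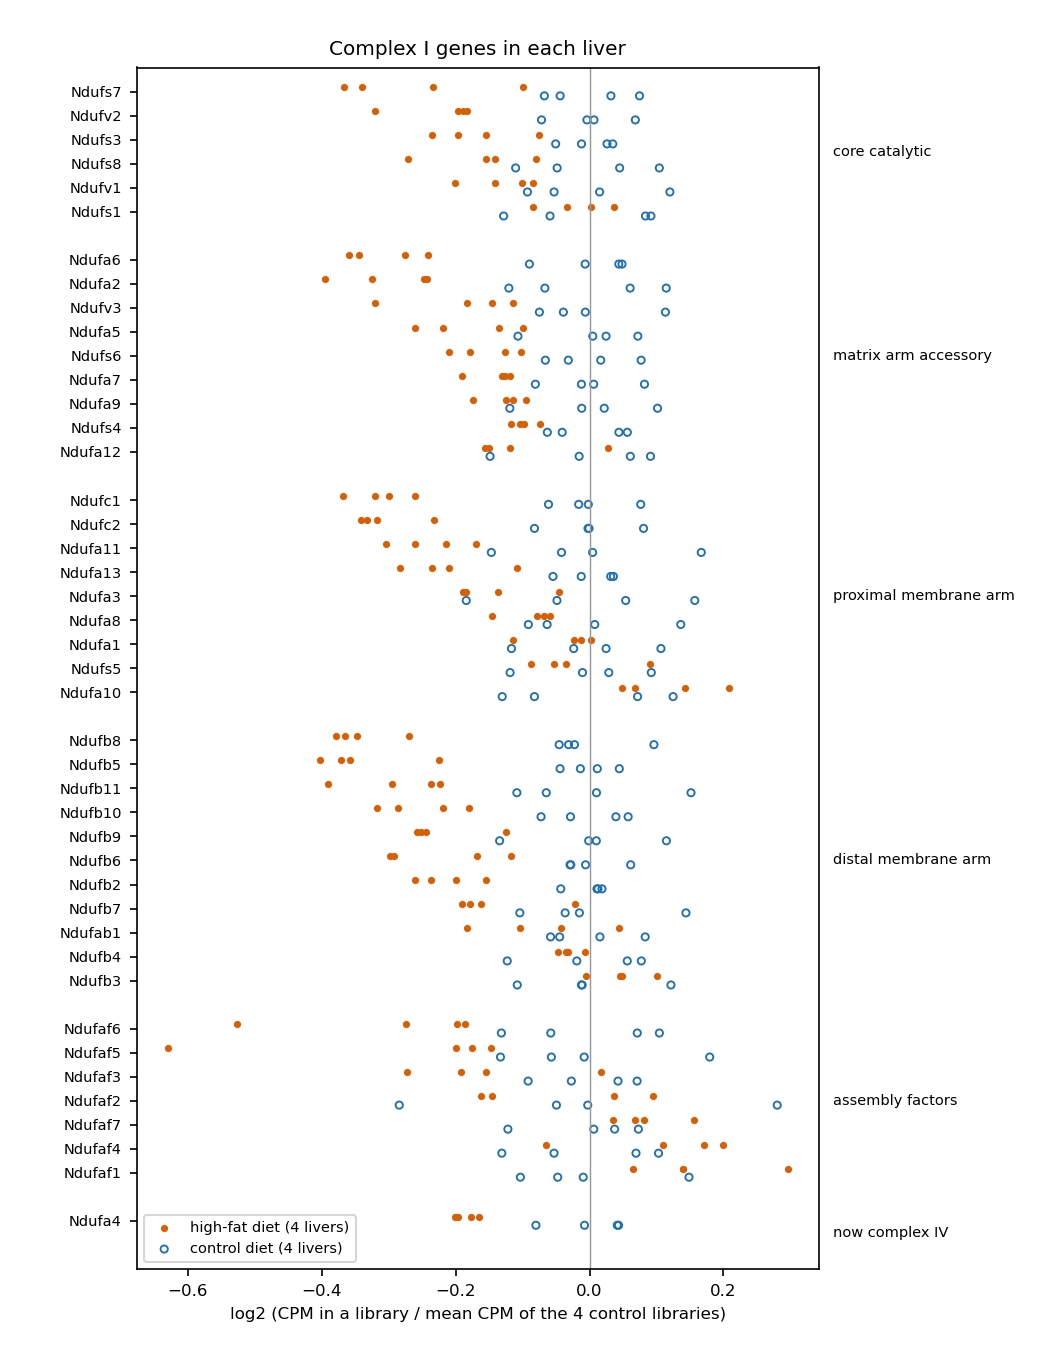
Each row is a complex I gene and each point a liver: filled points are the 4 high-fat livers and open points the 4 control livers, on the x axis as log2 of CPM over the mean of the controls. The rows are 43 of the 45 genes; Ndufa4l2, with a mean of 0.799 CPM, is left out. In 22 of them all filled points lie left of all open ones, and those of Ndufaf1, Ndufaf4, Ndufaf7, Ndufa10 and Ndufb3 are centred to the right of 0.

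Other features of the libraries moved with the diet. All 5 hepatocyte markers (Alb, Apoa1, Ttr, Fgb and Serpina1a) had negative log2 fold changes with a median of -0.53, 2 of them passed the test (Fgb and Serpina1a), and their summed level was 53790 to 56910 CPM in high-fat livers and 59340 to 100500 CPM in control livers. The adipocyte marker Adipoq had 2, 2, 3 and 10 counts in high-fat libraries and 42, 0, 0 and 32 in control libraries. Its mean was 0.151 CPM in high-fat livers and 0.70 CPM in control livers, those of Plin1, Lep and Retn were 0.099, 0.045 and 0.114 CPM in high-fat livers and 0.531, 0.159 and 0.213 CPM in control livers, all 4 overlapped between the diets, and none passed the filter on low counts. Cfd (complement factor D), the remaining marker of the list, was tested and was higher, at 18.5 to 74.0 CPM in high-fat livers and 0 to 3.33 CPM in control livers, and it made up nearly all of the summed level of the 5 markers in high-fat livers (18.7 to 74.3 CPM in high-fat livers and 0.111 to 5.36 CPM in control livers). Markers of skeletal and cardiac muscle, tissues rich in complex I, summed to at most 0.138 CPM in high-fat livers and 0.183 CPM in control livers. Kupffer cell markers summed to 356.8 to 615.2 CPM in high-fat livers and 299.5 to 734.3 CPM in control livers, and the groups overlapped. The part of the hepatocyte and adipocyte markers in the complex I result was not tested.

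Of the 7 core catalytic subunits encoded by the nucleus 1, Ndufv2, was lower, where 5.86% of all tested genes were. The median log2 fold change of the 7 was -0.16. Their summed level was 821 ± 18.5 CPM in high-fat livers and 891 ± 40.4 CPM in control livers (SD), a difference of -7.78%. Ndufv2 carries an iron-sulfur cluster beside the flavin and had 95.3, 95.8, 87.5 and 96.2 CPM in high-fat livers, against 109, 109.7, 104 and 115 CPM in control livers. High-fat replicate 3 was the lowest, and no high-fat liver reached the lowest control (log2 fold change -0.22 ± 0.058, edgeR adjusted p = 0.0429). Its call was lost in 7 of 8 fits that leave out 1 library, with edgeR adjusted p between 0.0381 and 0.108.

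Ndufv1, the partner of Ndufv2 that binds NADH and the flavin, had 156, 149, 160.2 and 162 CPM in high-fat livers, against 166, 161, 174 and 187 CPM in control livers, and the groups overlapped (log2 fold change -0.13 ± 0.065, edgeR adjusted p = 0.250). The ratio of Ndufv2 to Ndufv1 within a library was 0.612, 0.641, 0.546 and 0.594 in high-fat livers and 0.658, 0.681, 0.599 and 0.613 in control livers, which overlapped as well. Ndufs1, the largest core subunit and a carrier of several iron-sulfur clusters, had 180.2, 174, 189 and 185 CPM in high-fat livers, against 177, 169, 196 and 197 CPM in control livers. Its log2 fold change of -0.020 had a 95% interval from -0.18 to 0.14, which covers neither the change of Ndufb8 nor that of Ndufb5, and its sign turned with upper-quartile factors and with library totals.

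Ndufs7, which lines the site where ubiquinone is reduced, had 31.6, 34.6, 32.2 and 38.0 CPM in high-fat livers, against 42.8, 41.6, 38.8 and 39.5 CPM in control livers, with no overlap, and missed the threshold (log2 fold change -0.26 ± 0.072, edgeR adjusted p = 0.0540). The estimate for Ndufs7 is the most negative among the core subunits but carries a wider interval, from -0.42 to -0.095. Ndufs3, a structural subunit beside the quinone site, had 72.7, 74.6, 76.9 and 81.2 CPM in high-fat livers, against 84.8, 82.6, 87.1 and 87.6 CPM in control livers, again without overlap and short of the threshold (log2 fold change -0.16 ± 0.056, edgeR adjusted p = 0.0977). Ndufs8, which holds iron-sulfur clusters close to the membrane, had 69.1, 65.6, 60.5 and 66.2 CPM in high-fat livers, against 75.3, 70.6, 67.6 and 78.5 CPM in control livers (log2 fold change -0.16 ± 0.067, edgeR adjusted p = 0.172). For Ndufs8 the highest high-fat liver lay above the lowest control liver.

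Among the 9 accessory subunits of the matrix arm, 2 were lower, 9 had negative log2 fold changes, and 6 showed no overlap between the diets. Of all tested genes 5.86% were lower, and 9.97% had every high-fat library below every control library. The median of the 9 subunits was -0.15. Their summed level was 654 ± 10.5 CPM in high-fat livers and 748 ± 30.4 CPM in control livers (SD), a difference of -12.5%. Ndufa6, a small protein that holds the acyl carrier subunit on the matrix arm, had 137, 145, 138 and 149 CPM in high-fat livers, against 182, 165, 175 and 181 CPM in control livers. The highest high-fat liver lay well under the lowest control, at a level 19.0% lower (log2 fold change -0.30 ± 0.060, edgeR adjusted p = 0.0147). Ndufa2, a subunit with a thioredoxin-like fold in the NADH-oxidising part, had 58.7, 59.0, 53.0 and 55.6 CPM in high-fat livers, against 75.5, 66.6, 64.1 and 72.7 CPM in control livers, also without overlap (log2 fold change -0.30 ± 0.068, edgeR adjusted p = 0.0246). The call of Ndufa2 was lost without high-fat replicate 3, high-fat replicate 4 or control replicate 1, without control replicates 1 and 4 together, with library totals, and with the length and GC trends removed. The other 7 (Ndufv3, Ndufa5, Ndufs6, Ndufa7, Ndufa9, Ndufs4 and Ndufa12) had log2 fold changes between -0.19 and -0.098, none past the threshold.

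In the proximal membrane arm 2 of 9 accessory subunits, Ndufc1 and Ndufc2, were lower, where 5.86% of all tested genes were. Ndufc1 (mm10 chromosome 3, 51404677 to 51408988) had 31.2, 30.8, 32.1 and 29.8 CPM in high-fat livers, against 38.4, 40.5, 38.0 and 36.8 CPM in control livers (log2 fold change -0.31 ± 0.055, edgeR adjusted p = 0.00955). Ndufc2 (chromosome 7, 97400003 to 97407802) had 54.7, 58.6, 55.3 and 54.4 CPM in high-fat livers, against 65.1, 68.8, 68.9 and 72.9 CPM in control livers (log2 fold change -0.31 ± 0.055, edgeR adjusted p = 0.0106). Both are small subunits of the membrane arm, and their levels were 19.4% and 19.1% lower. The calls of Ndufc1 and Ndufc2 held in all 19 alternatives with the threshold at 0.05, as did that of Ndufb8. Ndufa11 and Ndufa13 showed no overlap and missed the threshold, with log2 fold changes of -0.24 and -0.21. Ndufa1, a short protein required for assembly of the membrane arm, had 60.9, 56.8, 60.4 and 61.5 CPM in high-fat livers, against 62.5, 56.7, 60.4 and 66.1 CPM in control livers (log2 fold change -0.037 ± 0.061, edgeR adjusted p = 0.756), and its sign turned with library totals, with the length and GC trends removed, and without control replicates 1 and 4.

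The only positive estimate in the proximal arm was that of Ndufa10, a subunit with the fold of a nucleoside kinase, with 160.3, 162, 179 and 171 CPM in high-fat livers, against 146, 142, 163 and 169 CPM in control livers (log2 fold change 0.12 ± 0.075, edgeR adjusted p = 0.371); it was picked out after its values were seen. The remaining 3 (Ndufa3, Ndufa8 and Ndufs5) had log2 fold changes from -0.14 to -0.019. The summed level of the 9 was 665 ± 17.1 CPM in high-fat livers and 711 ± 29.1 CPM in control livers (SD), and the groups overlapped.

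The distal membrane arm held 5 of the 10 calls, among 11 genes with a median of -0.22; the count was 2 without high-fat replicate 1, high-fat replicate 2 or control replicate 2, 3 without high-fat replicate 3, high-fat replicate 4 or control replicate 1, 1 without control replicates 1 and 4 together, and 2 with library totals, where the median was -0.12. Of all tested genes 5.86% were lower with all libraries and scaling factors, and 3.04% to 4.08% in these other fits. Ndufb8 (mm10 chromosome 19, 44548572 to 44555440), a subunit often used as an antibody target for the assembled complex, had 90.1, 89.3, 96.3 and 91.3 CPM in high-fat livers, against 113, 114, 124 and 114 CPM in control livers. Its level was 21.0% lower, the largest called fall of the 45 genes (log2 fold change -0.34 ± 0.058, edgeR adjusted p = 0.00836). Ndufb5 (chromosome 3, 32736990 to 32751566) had 64.9, 66.9, 66.3 and 73.3 CPM in high-fat livers, against 88.4, 83.1, 84.9 and 86.4 CPM in control livers, 20.8% lower (log2 fold change -0.34 ± 0.057, edgeR adjusted p = 0.00838). In both genes the gap between the groups was wider than the range within either of them. Without control replicates 1 and 4 the adjusted p of Ndufb5 was 0.0534 and that of Ndufa6 0.0837, and both kept their direction (edgeR).

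Ndufb10, a subunit with paired cysteines that is imported into the intermembrane space, had 73.0, 76.5, 71.4 and 78.6 CPM in high-fat livers, against 84.7, 87.3, 92.7 and 91.5 CPM in control livers (log2 fold change -0.25 ± 0.057, edgeR adjusted p = 0.0260). Ndufb11, an X-linked subunit, had 102, 108, 95.7 and 107 CPM in high-fat livers, against 126, 120.0, 116 and 139 CPM in control livers (log2 fold change -0.29 ± 0.073, edgeR adjusted p = 0.0381). Ndufb2 had 40.7, 40.0, 43.1 and 41.8 CPM in high-fat livers, against 48.4, 48.4, 46.6 and 48.6 CPM in control livers (log2 fold change -0.21 ± 0.050, edgeR adjusted p = 0.0283). None of these overlapped between the diets, and their calls were less stable: leaving out 1 library in turn, Ndufb10 passed in 4 of 8 fits, Ndufb2 in 3 of 8 and Ndufb11 in 1 of 8. Ndufb9, a small matrix-facing subunit and the second in level per length, had 181, 179.5, 179 and 196 CPM in high-fat livers, against 215, 195, 214 and 231 CPM in control livers (log2 fold change -0.22 ± 0.070, edgeR adjusted p = 0.0831), and high-fat replicate 4 reached into the control range. Of the other 5, Ndufb6, Ndufb7, Ndufb4 and the acyl carrier protein Ndufab1 had negative estimates from -0.22 to -0.031, and Ndufb3 had 0.048; none passed. The summed level of the 11 was 815 ± 26.8 CPM in high-fat livers and 947 ± 36.6 CPM in control livers (SD), a difference of -13.9%.

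**Figure D2:**
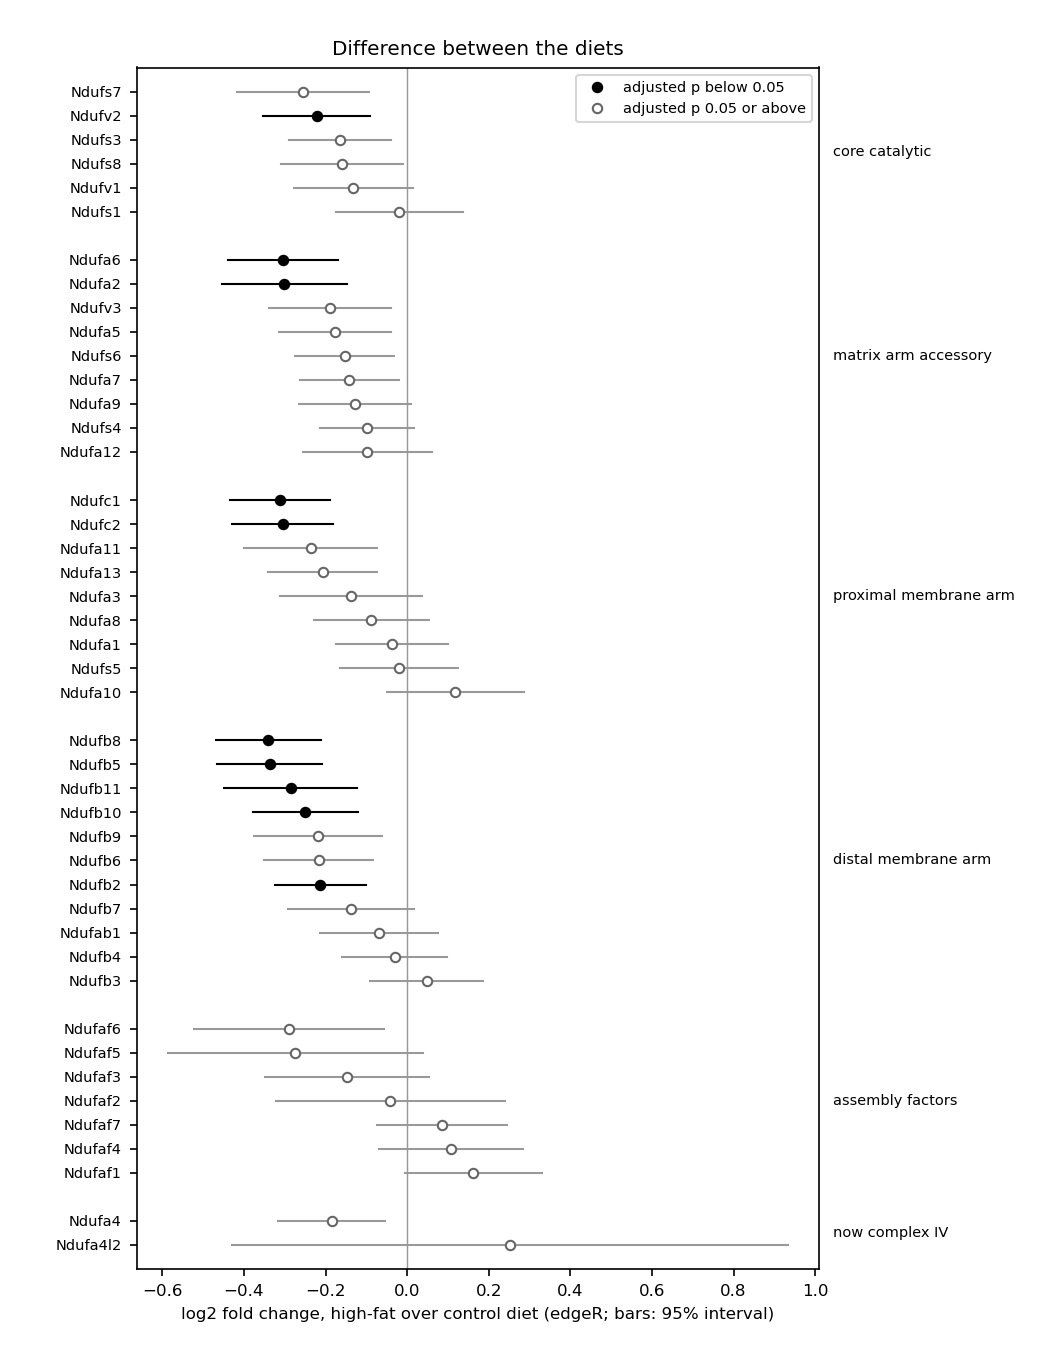
The x axis is the log2 fold change of 44 of the 45 genes, high-fat over control, with its 95% interval from edgeR; filled points had an adjusted p below 0.05. The 10 filled points lie between -0.34 and -0.21, 5 of them in the distal membrane arm; Ndufs1, Ndufs5 and Ndufb4 lie close to 0, and 3 of the 7 assembly factors lie to the right of it.

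The 7 numbered assembly factors of the set gave no calls and had estimates of both signs. Ndufaf8, which stands outside the set under an older name, was lower and is given further below. Of the 7, 0 were lower and 0 higher with edgeR, DESeq2 or limma-voom. At an unadjusted edgeR p below 0.05, 1 was lower (Ndufaf6) and 0 were higher. Their median log2 fold change was -0.041, and 0.054 with library totals. Their summed level was 118 ± 3.73 CPM in high-fat livers and 115 ± 6.69 CPM in control livers (SD), and the groups overlapped.

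Ndufaf1, a scaffold for the membrane arm and a partner of Ecsit and Acad9, had 33.6, 37.5, 31.9 and 33.6 CPM in high-fat livers, against 28.4, 29.5, 30.3 and 33.8 CPM in control livers. Control replicate 4 lay within the high-fat range, and the estimate was positive but short of the threshold (log2 fold change 0.16 ± 0.075, edgeR adjusted p = 0.215); with library totals it passed (log2 fold change 0.26, edgeR adjusted p = 0.0415). Ndufaf4, which with Ndufaf3 joins the quinone-reducing module early in assembly, had 38.5, 32.0, 36.1 and 37.7 CPM in high-fat livers, against 35.2, 30.6, 32.3 and 36.0 CPM in control livers (log2 fold change 0.11 ± 0.079, edgeR adjusted p = 0.443). Ndufaf3 had 9.38, 10.8, 8.87 and 9.62 CPM in high-fat livers, against 11.3, 10.5, 10.1 and 11.0 CPM in control livers (log2 fold change -0.15 ± 0.090, edgeR adjusted p = 0.354). Both of these overlapped between the diets, with estimates of opposite sign. Ndufaf7, an arginine methyltransferase, had 15.3, 14.03, 14.4 and 14.5 CPM in high-fat livers, against 14.1, 12.6, 13.8 and 14.4 CPM in control livers (log2 fold change 0.086 ± 0.071, edgeR adjusted p = 0.502). Ndufaf5, which hydroxylates an arginine of Ndufs7, had 4.71, 3.37, 4.53 and 4.61 CPM in high-fat livers, against 5.90, 5.18, 5.01 and 4.75 CPM in control livers (log2 fold change -0.27 ± 0.14, edgeR adjusted p = 0.261).

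Within the set, Ndufaf5 and Ndufaf6 were the numbered factors whose high-fat values all lay below the control values, and neither passed the test. Ndufaf6, a protein related to phytoene synthases, had 9.38, 8.82, 7.41 and 9.30 CPM in high-fat livers, against 11.2, 10.3, 9.74 and 11.5 CPM in control livers (log2 fold change -0.29 ± 0.10, edgeR adjusted p = 0.115). Ndufaf2, which attaches late in assembly, had 9.65, 11.0, 9.54 and 11.4 CPM in high-fat livers, against 8.77, 10.7, 10.3 and 13.0 CPM in control livers (log2 fold change -0.041 ± 0.13, edgeR adjusted p = 0.872), and its sign turned with library totals, with a surrogate variable and without control replicate 4. The eighth numbered factor, Ndufaf8, stands in the deposited table under its older name 1810043H04Rik and so outside the name rule. This partner of Ndufaf5 was lower, with 7.40, 7.05, 6.09 and 6.94 CPM in high-fat livers, against 11.1, 12.1, 8.30 and 10.8 CPM in control livers (log2 fold change -0.62 ± 0.13, edgeR adjusted p = 0.0168); without high-fat replicate 3 its edgeR adjusted p was 0.0511. Of 13 other assembly factors in the table, Ndufaf8 included, 2 were lower and 0 higher; 4 were lower and 0 higher at an unadjusted p below 0.05, and DESeq2 called 0 higher. The second was Timmdc1, a membrane-arm assembly factor, with 29.9, 31.0, 30.5 and 33.6 CPM in high-fat livers, against 37.0, 36.5, 35.4 and 38.7 CPM in control livers (log2 fold change -0.24 ± 0.059, edgeR adjusted p = 0.0337), whose call was lost in 6 of 8 fits that leave out 1 library.

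Ratios of summed levels within a library do not depend on the scaling of libraries and set the parts of the complex against each other. The matrix arm accessory subunits stood at 0.798, 0.816, 0.783 and 0.790 times the core subunits in high-fat livers, against 0.861, 0.838, 0.830 and 0.830 in control livers, with no overlap. The distal membrane arm stood at 0.974, 1.01, 0.978 and 1.01 times the core in high-fat livers, against 1.08, 1.07, 1.05 and 1.06 in control livers, also with no overlap. The proximal arm did not separate, at 0.801, 0.809, 0.825 and 0.806 in high-fat livers and 0.812, 0.801, 0.788 and 0.794 in control livers. The summed assembly factors went the other way, at 0.148, 0.147, 0.137 and 0.143 times the core in high-fat livers. In control livers they stood at 0.131, 0.129, 0.124 and 0.132, and every high-fat ratio was the higher. Ndufaf1 and Ndufaf4, both with positive estimates, held means of 34.2 and 36.1 of the 118 CPM in high-fat livers. Of the 7 factors 4 had negative estimates, and Ndufaf8 is not in the sum. The sums weigh abundant genes most, and these ratios are descriptions with no test. Independence of library scaling does not cover features in which the genes differ, such as transcript length. With trends on exon length and GC content removed, the median log2 fold changes of the core and the matrix arm were -0.097 and -0.104. Those of the proximal arm, the distal arm and the assembly factors were -0.060, -0.14 and -0.033. The part of transcript length in the ratios was not tested.

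**Figure D3:**
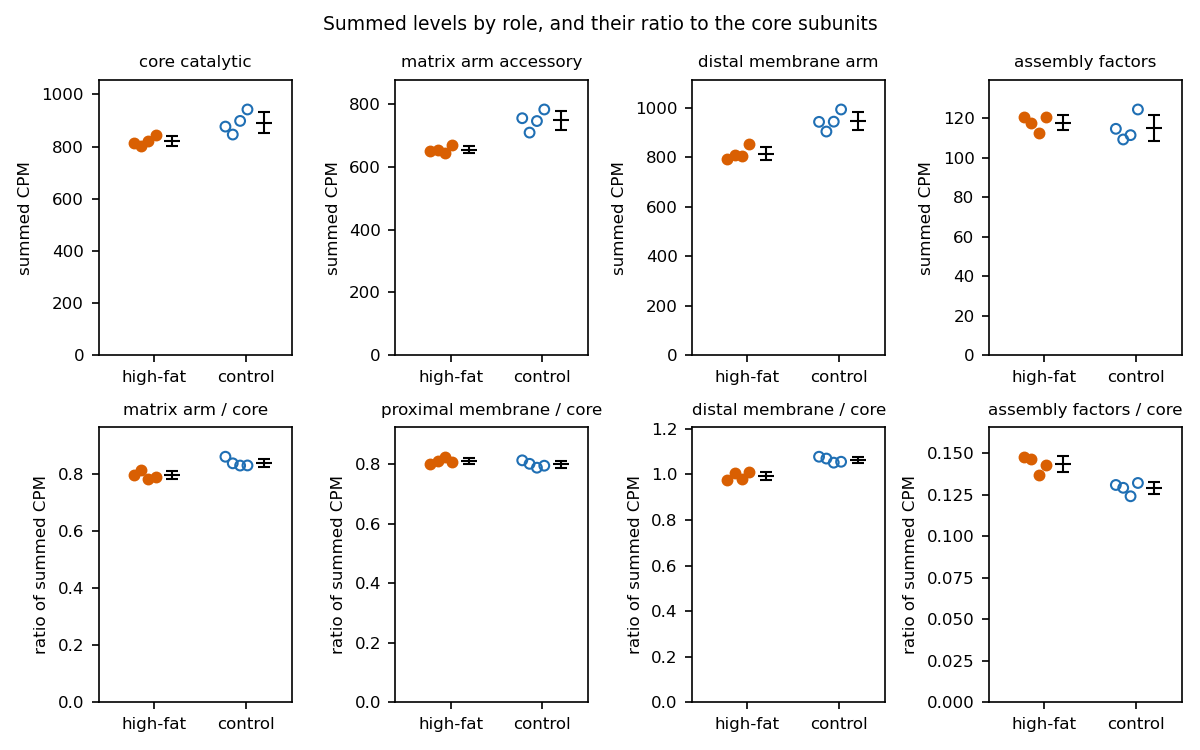
Points are livers, high-fat to the left and control to the right; crosses with bars are the mean and SD of 4 livers, and every y axis starts at 0. The upper row gives summed CPM of 4 role groups, and the lower row the summed CPM of 4 groups over that of the 7 core subunits. The matrix arm and distal arm ratios are lower in every high-fat liver than in any control, the assembly factor ratio is higher in every one, and the proximal arm ratio overlaps.

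Levels of the 45 genes, per kilobase of the principal transcript (the shortest of the best-supported coding transcripts), spanned 520-fold as means of 8 livers. Ndufa4 was the highest, at 445 CPM per kb, followed by Ndufb9 at 282 and Ndufa6 at 269. Ndufa4 carries a complex I name but is known as a subunit of cytochrome c oxidase, complex IV. It had 255, 251, 252 and 258 CPM in high-fat livers, against 287, 273, 297 and 297 CPM in control livers, without overlap and short of the threshold (log2 fold change -0.18 ± 0.058, edgeR adjusted p = 0.0797). Its paralogue Ndufa4l2, known to be induced by low oxygen, was the lowest at 0.855 CPM per kb, with 0.830, 0.850, 1.32 and 0.472 CPM in high-fat livers, against 0.621, 0.703, 0.754 and 0.840 CPM in control livers (log2 fold change 0.25 ± 0.30, edgeR adjusted p = 0.661). The sign of Ndufa4l2 turned without high-fat replicate 3, its highest library.

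On this scale, apart from Ndufa4l2, the 7 lowest of the 45 were the 7 Ndufaf genes, from 4.08 CPM per kb for Ndufaf5 and 6.86 for Ndufaf3 to 22.3 for Ndufaf1, and the lowest structural subunit was Ndufc1 at 27.8. The order depends on the transcript chosen, and so does that separation: per kilobase of all exons merged, Ndufb2 at 7.94 and Ndufab1 at 8.14 lay below Ndufaf4 at 8.92, and Ndufaf1 at 21.6 lay above both of them and above Ndufb7, Ndufb5 and Ndufs4. On the same merged exons the 3 highest were Ndufa4 at 196, Ndufb9 at 193 and Ndufa1 at 145, and the 3 lowest Ndufa4l2 at 0.730, Ndufaf5 at 2.66 and Ndufaf2 at 3.54. Ndufb2 stood at 98.2 CPM per kb on its short transcript and 10.2 on the longest one.

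**Figure D4:**
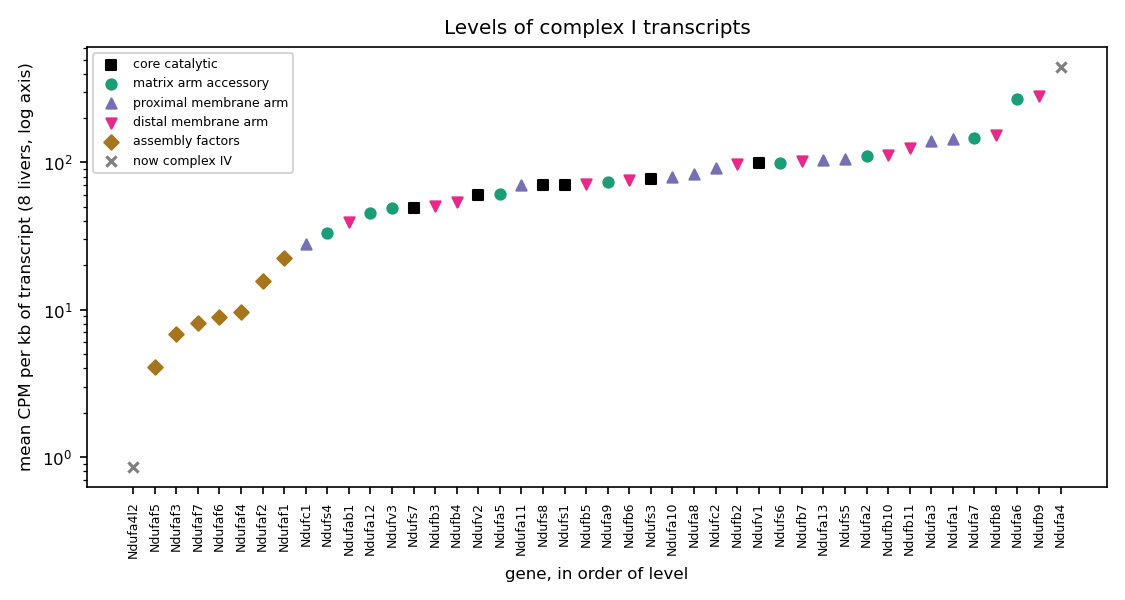
The y axis (log scale) is the mean level of 8 livers in CPM per kilobase of the principal transcript, and 44 of the 45 genes are ordered by it on the x axis; symbols give the role. The 7 assembly factors lie between 4.08 and 22.3, all below the lowest structural subunit, Ndufc1 at 27.8.

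Complex I transcripts are short and abundant, and both properties went with lower levels across the table. The median level of the 45 genes was 62.3 CPM, against 13.4 CPM for all tested genes, and the median standard error of their log2 fold changes was 0.064, against 0.124. At 30 to 100 CPM 6 of 27 complex I genes were lower (22.2%) and 7.92% of all genes at that level, and at 100 CPM or more 4 of 12 (33.3%) and 16.0%. Of the 19 with a principal transcript under 800 bases 6 were lower (31.6%), of 17 from 800 to 1500 bases 3 (17.6%), and of 9 longer ones 1 (11.1%). Among all tested protein-coding genes the shares were 18.9%, 9.05% and 4.79%, so that shorter transcripts were lower more often whether or not they belong to complex I.

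Over the 45 genes the log2 fold change and log2 transcript length had Pearson r of 0.358 and Spearman rho of 0.292, and over all 14044 genes with a length 0.11 and 0.133; genes share their libraries and are not independent. With the trends on exon length and GC content removed from each library, 6 of the 45 were lower (Ndufb8, Ndufb5, Ndufc1, Ndufc2, Ndufa6 and Ndufb2), where 5.51% of all genes were, and the median was -0.10. That fit used the length of all exons merged, which can differ widely from that of the principal transcript. For Ndufb2 these were 5628 and 455 bases, and for Ndufb8 3146 and 680. How far transcript length or RNA quality entered the calls, kept or lost, was not tested.

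**Figure D5:**
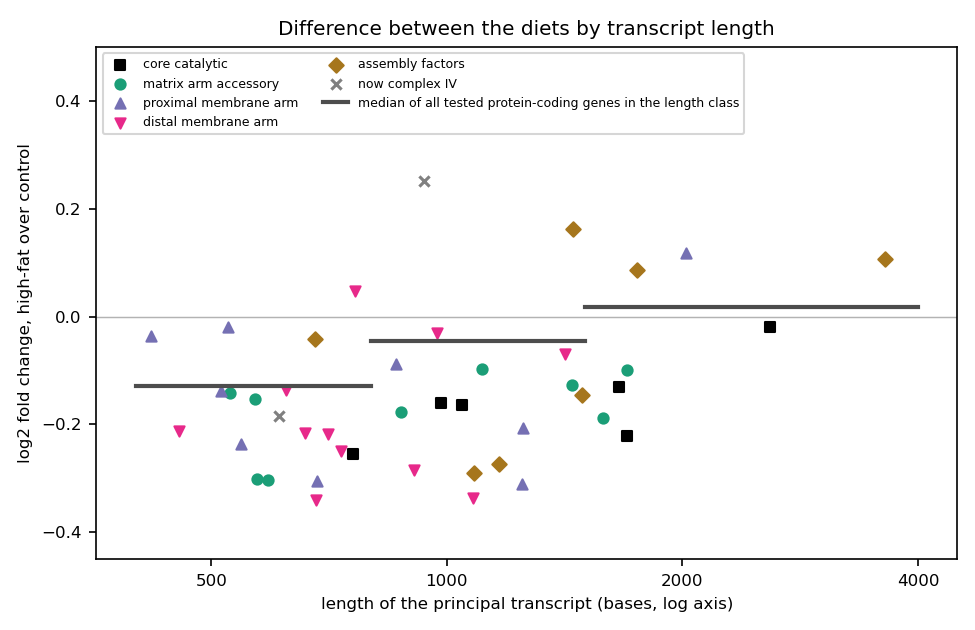
The x axis is the length of the principal transcript in bases (log scale) and the y axis the log2 fold change, high-fat over control; symbols give the role. Grey bars are the medians of all tested protein-coding genes, -0.13 under 800 bases, -0.046 from 800 to 1500 and 0.017 above, and 34 of the 44 complex I genes drawn lie below the bar of their class.

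The livers within a diet also differed together. Control replicate 4 lay above the control mean for 39 of the 45 genes and was the highest control in 29, and control replicate 2 lay below the mean for 38. Among high-fat livers, replicate 4 lay above the mean for 33 genes and was the highest in 22. For all tested genes the shares above the group mean were 48.6% to 51.9% in every library. The median coefficient of variation over the 45 genes was 4.71% in high-fat livers and 6.08% in control livers, against 2.49% and 2.34% from counting error alone.

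Regulators of nuclear respiratory genes were read beside the complex, from a list of 13. Ppargc1a, which encodes the coactivator PGC-1 alpha, had 4.67, 5.46, 4.64 and 3.92 CPM in high-fat livers, against 8.50, 10.1, 13.0 and 7.27 CPM in control livers (log2 fold change -1.06 ± 0.18, edgeR adjusted p = 0.00936). Esrra, a nuclear receptor that PGC-1 alpha coactivates on respiratory genes, had 16.1, 17.1, 16.9 and 16.5 CPM in high-fat livers, against 23.0, 22.9, 19.1 and 19.2 CPM in control livers (log2 fold change -0.34 ± 0.081, edgeR adjusted p = 0.0312). Both were lower without overlap between the diets, and the call of Esrra was lost in 6 of 8 fits that leave out 1 library. The other 11 did not pass: none was higher with edgeR, 1 was at an unadjusted p below 0.05, and DESeq2 called 1 higher. That one, the related receptor Esrrg, had 2.32, 1.59, 1.59 and 1.89 CPM in high-fat livers, against 0.582, 0.888, 1.03 and 1.43 CPM in control livers (log2 fold change 0.91 ± 0.27, edgeR adjusted p = 0.0686), on 45 to 67 counts in high-fat libraries and 15 to 39 in control libraries. Nrf1, Gabpa and Yy1, DNA-binding factors with sites at many respiratory promoters, had log2 fold changes of -0.054, -0.038 and 0.086, and Tfam, the packaging factor of mitochondrial DNA, -0.035.

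Promoter sequences from RefSeq (GRCm38.p6, 250 bases before to 50 after the annotated start) were matched for 39 of the 45 genes by symbol and searched on both strands for 4 motifs; no gene held matches to more than 1 of them. GCGCATGCG, the palindromic core bound by NRF1, was in 4 of 39 (10.3%), against 3.97% of the promoters of tested genes. CCGGAAG, an ETS core of the GABPA type, was in 5 (12.8%), against 19.1%. AAGATGGC, a YY1 core, was in 7 (17.9%), against 5.11%. CAAGGTCA, an ERR half-site, was in 1 (2.56%), against 1.39%. All 7 YY1 matches were on the sense strand, with first bases from 23 to 39 bases after the start; they hold the letters ATG. Of the 9 lower genes with a promoter in the table, Ndufb8 and Ndufc1 had the YY1 letters and none had any of the other 3 motifs, which says only that these letters are not in these windows.

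The bases before the start are shown for 2 lower genes, Ndufb8 and Ndufc2, and for 2 genes that were not called, chosen to show an NRF1 and an ERR match; capitals mark the match, and the windows hold no annotated exon.
Ndufb8, chr19:44555443-44555692, minus strand: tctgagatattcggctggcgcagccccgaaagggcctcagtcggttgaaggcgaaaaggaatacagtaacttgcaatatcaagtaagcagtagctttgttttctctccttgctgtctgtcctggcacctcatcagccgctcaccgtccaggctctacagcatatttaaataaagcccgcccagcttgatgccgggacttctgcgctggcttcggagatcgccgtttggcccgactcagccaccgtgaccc
Ndufc2, chr7:97399753-97400002, plus strand: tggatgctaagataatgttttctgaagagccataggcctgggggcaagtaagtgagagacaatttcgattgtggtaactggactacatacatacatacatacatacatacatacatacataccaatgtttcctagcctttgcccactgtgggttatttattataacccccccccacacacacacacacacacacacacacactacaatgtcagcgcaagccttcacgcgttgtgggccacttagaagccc
Ndufaf4, chr4:24897833-24898082, plus strand: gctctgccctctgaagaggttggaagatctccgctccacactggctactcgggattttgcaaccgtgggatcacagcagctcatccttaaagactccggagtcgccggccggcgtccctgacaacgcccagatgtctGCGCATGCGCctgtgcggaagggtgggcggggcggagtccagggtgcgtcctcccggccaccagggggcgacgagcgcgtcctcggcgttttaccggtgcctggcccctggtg
Ndufs5, chr4:123718203-123718436, minus strand: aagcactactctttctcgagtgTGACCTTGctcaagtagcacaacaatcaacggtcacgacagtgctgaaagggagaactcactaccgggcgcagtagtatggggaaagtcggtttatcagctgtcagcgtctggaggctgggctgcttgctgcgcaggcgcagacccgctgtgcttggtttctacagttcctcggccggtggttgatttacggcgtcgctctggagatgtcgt
In Ndufaf4 both strands match the NRF1 letters 1 base apart, in a run of 10 bases that reads the same on either strand. The capitals in Ndufs5, which had 54.9, 52.9, 59.9 and 54.2 CPM in high-fat livers, against 55.8, 51.8, 57.3 and 59.9 CPM in control livers, are the ERR half-site on the opposite strand. Ndufb8 and Ndufc2 hold none of the 4 motifs before their starts, and the upstream window of Ndufc2 contains runs of CATA and CA repeats.

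Some rows share bases with neighbours, and the strand setting of the counting is not given in the sources used here. Ndufb2 overlaps 146 exon bases of Braf on the opposite strand, whose counts were 47.6% of those of Ndufb2 (log2 fold change -0.035), and 145 of Gm42420 on the same strand at 13.5% (-0.58). Ndufb8 overlaps 134 exon bases of Gm20538 on the same strand, whose counts were 4.68% of those of Ndufb8 (log2 fold change -0.48, edgeR adjusted p = 0.0781). Ndufb5 overlaps Mrpl47 (616 bases, 14.4%), Ndufb11 overlaps Rbm10 (117 bases, 19.4%) and Ndufa2 overlaps Tmco6 (66 bases, 8.77%), all on opposite strands. Of these partners only Gm42420 and Tmco6 passed the test, both lower, with edgeR adjusted p of 0.0259 and 0.0116. Ndufaf3 shares 48 bases with Impdh2, whose counts were 240.8% of its own, and Ndufa4l2 shares 32 with Shmt2, whose counts were 15536% of its own, so that their low values are uncertain. Near-identical processed pseudogenes were found for Ndufs3, Ndufs5, Ndufs6 and Ndufb11, and each held at most 0.255% of the counts of its gene.

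The nuclear subunits of the other respiratory complexes and of ATP synthase were read for comparison. Of 38 genes 20 were lower and 0 higher (31 lower and 0 higher at an unadjusted p below 0.05; 27 and 0 with DESeq2), with a median of -0.24, against 10 of 45 and -0.15 for the complex I names. The shares of all tested genes that were lower were 5.86%, 13.8% at an unadjusted p below 0.05, and 8.47% with DESeq2. By complex, 1 of 4 were lower in complex II, 4 of 9 in complex III, 7 of 10 in complex IV and 8 of 15 in complex V. Their summed level was 8014 ± 182 CPM in high-fat livers and 9246 ± 352 CPM in control livers (SD), a difference of -13.3%. Without control replicates 1 and 4 the counts were 10 of 38 and 3 of 45. In the other complexes 13 of 38 were lower without high-fat replicate 3, and 14 with library totals, where the median was -0.14 and the summed shares of counts overlapped between the diets. In these settings, in that order, 3.18%, 3.04% and 3.79% of all tested genes were lower. The lists were not matched on level. At 100 CPM or more 16.0% of all tested genes were lower, against 7.92% at 30 to 100 CPM. No test compared complex I with the others, and the lists share libraries.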

How the data were processed

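The authors deposited 1 table of whole-number read counts per gene for 8 liver libraries, with gene names, types and mm10 coordinates. Per the labels' protocols, frozen livers gave total RNA (mirVana kit) and stranded total RNA libraries (Illumina TruSeq). The submitters' processing notes name TopHat2 2.1.1, Trimmomatic 0.32 and bcl2fastq 2.20.0.422 without their roles. How reads were counted, with which annotation and whether by strand, is not given in the sources used here.

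Counts were fitted with edgeR 4.0.16 (quasi-likelihood test, filterByExpr, TMM factors, no covariate) over 14088 genes, which held 99.93% of counts, with Benjamini-Hochberg adjustment across all of them; a gene was called at an adjusted p below 0.05. The ± beside a log2 fold change is its standard error, and CPM values use TMM-scaled library sizes. TMM factors were 1.02 to 1.07 in high-fat libraries and 0.955 to 0.977 in control libraries. Lengths, exons and overlaps came from GENCODE M21 on the same assembly, and near-identical copies (at least 95% identity over 50% of the transcript) from blastn 2.17.0.

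Alternatives were other scaling factors, library totals alone, DESeq2 1.42.0, limma-voom (limma 3.58.1), 2 other filters on low counts, 1 surrogate variable (sva 3.50.0), leaving out the 10 most abundant genes, removal of loess trends on exon length and GC content (span 0.3), thresholds of 0.01 and 0.10, and fits without control replicates 1 and 4 or without each library in turn. The genes, gene lists and alternatives were chosen with earlier results of these data known. Named with all values were the called genes, the core subunits, the numbered assembly factors, and the 3 highest and 3 lowest genes per kilobase of exon (of the principal transcript and of all exons merged); others were named from the lists or marked as chosen after their values were seen. Replicate numbers follow accession order. Values of 1 of the 45 genes are not reported singly here; it stays in the fits, sums and counts. The design names biological replicates, with no further detail of the animals.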

Additional observations from a re-analysis of the deposited data

Results flagged for a closer look

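In each diet a library was marked where it stood far from the other 3 of its group in the level of a named complex I gene. Of 54 groups of 4 libraries examined 5 were marked, and chance marks about 1 in 20.

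Ndufv2 had 87.5 CPM in high-fat replicate 3, the lowest, and at least 95.3 CPM in the other high-fat libraries. Ndufaf5 had 3.37 CPM in high-fat replicate 2, where the next lowest high-fat library had 4.53 CPM. Ndufb9 had 196 CPM in high-fat replicate 4, the highest, and at most 181 CPM in the other high-fat libraries. In control replicate 3 Ndufb8 was the highest of its group at 124 CPM, with the next control library at 114 CPM, and Ndufb2 the lowest at 46.6 CPM, with the next at 48.4 CPM.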

How the results depend on the processing

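With upper-quartile or RLE factors, limma-voom, 1 CPM in 4 libraries, a surrogate variable, or without the 10 most abundant genes, 9 to 11 of the 45 genes were lower and 0 higher. The count of lower genes moved to 5 with library totals, where 1 was higher and the median was -0.058. That setting gave 534 lower and 1111 higher of all genes. The count was 17 with DESeq2, which called 1193 of all genes lower and 860 higher. It was 6 with no filter and 6 with length and GC trends removed (median -0.10). At an adjusted p of 0.01 it was 3 (221 lower and 148 higher of all), and at 0.10 it was 17 (1284 and 921). Without control replicates 1 and 4 it was 3 (461 and 282, median -0.11). Leaving out each library in turn gave 6 to 11 lower genes, a median of -0.17 to -0.13, and 432 to 843 lower and 293 to 636 higher of all genes. In each such fit the group of 3 was assumed to vary like the group of 4.

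Signs turned for Ndufs1 (0.0038 with upper-quartile factors, 0.076 with library totals, 0.0011, 0.0084 and 0.011 without high-fat replicate 2, control replicate 3 or control replicate 4; -0.062 to 0.011 over the 8 fits that leave out 1 library), Ndufa1 (0.059 with library totals, 0.098 with trends removed, 0.030 without control replicates 1 and 4), Ndufaf2 (0.054 with library totals, 0.0079 with a surrogate variable, 0.065 without control replicate 4) and Ndufa4l2 (-0.025 without high-fat replicate 3 to 0.46 without high-fat replicate 4); the cause was not tested, and none of these passed the test in any of them. Over the alternatives the estimates of Ndufs5 (-0.059 to 0.077), Ndufb4 (-0.071 to 0.064), Ndufab1 (-0.10 to 0.026) and Ndufa8 (-0.12 to 0.0062) also crossed 0, and none of them passed.

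No paired analysis was possible because the labels carry no replicate numbers shared between the diets. With 4 livers per diet and standard errors near 0.064, differences much under 14% were not called for any of the 45 genes.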

Other observations

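A list of 12 genes outside complex I held, among others, electron carriers and dehydrogenases that feed the chain by other routes. It also held shuttle carriers and enzymes of the tricarboxylic acid cycle. Of the 12, 1 was lower and 1 higher (edgeR). The lower one is no route of electrons into the chain, and a part of the higher one in the chain was not tested. Cs, the citrate synthase of the tricarboxylic acid cycle, had 183, 178, 180 and 183 CPM in high-fat livers, against 237, 235, 234 and 202 CPM in control livers, with no overlap (log2 fold change -0.32 ± 0.067, edgeR adjusted p = 0.0172); the call of Cs was lost without high-fat replicate 2, high-fat replicate 4 or control replicate 2 and with library totals (edgeR adjusted p between 0.0507 and 0.0628). Aifm2, a NAD(P)H-dependent ubiquinone reductase outside complex I, had 21.3, 22.2, 24.5 and 25.7 CPM in high-fat livers, against 13.97, 14.3, 18.4 and 19.1 CPM in control livers (log2 fold change 0.51 ± 0.12, edgeR adjusted p = 0.0267); its call was lost without high-fat replicate 2, 3 or 4, without control replicate 1 or 2, and without control replicates 1 and 4 together (edgeR adjusted p between 0.0530 and 0.0771). Gpd2, the mitochondrial glycerol-3-phosphate dehydrogenase that hands electrons to ubiquinone, had a log2 fold change of 0.26 and missed the threshold (edgeR adjusted p = 0.0686). Etfdh, which passes electrons from fatty acid oxidation to ubiquinone, had 371, 398, 364 and 399 CPM in high-fat livers, against 329, 307, 394 and 388 CPM in control livers, and the diets overlapped.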
